A study of Mus musculus with 2 samples.

Results

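The myomesins and the myosin binding proteins are the structural proteins that hold the myosin filaments of the sarcomere in place. They were chosen by symbol: Myom1, Myom2, Myom3, Mybpc1, Mybpc2 and Mybph, 6 genes in all, were sought among the 35163 genes of the count table. Values were analysed for 5 of the 6, and Myom1 was not analysed here. They were read across single myofibers of a muscle in the sole of the foot, flexor digitorum brevis (FDB). The cells are taken here to come from 1 untreated adult C57BL/6J mouse older than 3 months. The paper's methods name adult males of both C57BL/6J and DBA2 background, and do not give how many mice supplied these cells. The muscle was digested with collagenase, sorted by a large-particle sorter as whole myofibers or as fragments cut to mimic a biopsy, and made into libraries by mcSCRB-seq, in which a molecular tag on each transcript (UMI) lets amplified copies be counted as 1. Of 763 cells, 171 were kept because more than 5000 genes were detected and less than 20% of counts came from mitochondrial genes, and these were 168 whole myofibers and 3 fragments. Each kept cell was placed in a fibre class by the largest of its Myh1, Myh2, Myh4, Myh7 and Myh8 counts, the myosin heavy chain genes that define mouse fibre types.

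The M-band is the line at the centre of the sarcomere where neighbouring myosin filaments are linked to each other and to titin. Myomesins are its cross-linking proteins, and the isoforms are known to be distributed by fibre type: M-protein (Myom2) is typical of fast fibres, whereas myomesin-3 (Myom3) is typical of intermediate fibres. Myosin binding protein C sits on either side of the M-band, where it binds myosin and actin and tunes the speed of cross-bridge cycling. The slow isoform is encoded by Mybpc1 and the fast isoform by Mybpc2, while myosin binding protein H (Mybph) is a shorter relative.

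The 171 cells comprised 117 fast 2X cells (Myh1 largest), 51 fast 2A cells (Myh2 largest), 2 slow cells (Myh7 largest) and 1 fast 2B cell (Myh4 largest). As all cells are taken to come from 1 animal, no test was made. The limits given below are 95% limits that cover counting error only. A level is given as CPM, the counts of a gene scaled to a common total of 1000000 counts for the cell or for the summed class. Median depth was 255726 counts in fast 2X cells and 206510 in fast 2A cells, and median mitochondrial shares were 5.01% and 6.96%, respectively. The part of these differences in the results was not tested, apart from the alternatives given with them. Both classes were present in both sequencing lanes and under all 8 index codes of the count table. These codes are taken here to be plates and are called so below. Each code lies within 1 lane, so that lanes and plates are not separate checks. The myofibre markers Acta1, Ckm, Ttn and Des summed to 92314 CPM in fast 2X and 101787 CPM in fast 2A cells. The markers of endothelial cells, fibroblasts, smooth muscle, satellite cells, Schwann cells, macrophages and red blood cells summed to between 9.78 and 44.1 CPM per list in fast 2X cells and between 3.28 and 46.0 CPM in fast 2A cells, and no listed marker was at 0. Among these lists smooth muscle and pericyte markers were at 44.1 and 23.3 CPM, Schwann markers at 9.78 and 3.28 CPM and red blood cell markers at 19.8 and 7.81 CPM, all lower in fast 2A cells, and their part in the class differences was not tested. The cardiac list (Myh6, Mybpc3 and Tnni3) was at 14.4 and 110 CPM. Genes that the class rule did not use differed in the direction of the labels: Actn3 and Pvalb, typical of fast 2X fibres, summed to 8817 CPM in fast 2X and 2828 CPM in fast 2A cells, and Tnni1, Tnnt1 and Myl3, typical of slow and 2A fibres, to 687 and 4984 CPM.

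The bases just before the RefSeq starts of 3 members are shown because these genes differed in how they followed fibre class: Mybpc2 was the fast 2X gene, its paralog Mybpc1 was almost level, and Myom3 leaned to fast 2A. Each run is the 250 bases upstream of the start in GRCm38.p6, written 5′ to 3′ on the strand of the gene, with matches to the E-box letters CANNTG in capitals. Mybpc2 is at chr7:44524670-44524919 (minus strand), Mybpc1 at chr10:88605153-88605402 (minus strand) and Myom3 at chr4:135759465-135759714 (plus strand).
Mybpc2: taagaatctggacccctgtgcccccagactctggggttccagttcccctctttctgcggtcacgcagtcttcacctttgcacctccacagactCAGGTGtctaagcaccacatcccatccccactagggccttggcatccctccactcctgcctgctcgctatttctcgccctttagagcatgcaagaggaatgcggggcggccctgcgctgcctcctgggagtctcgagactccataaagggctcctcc
Mybpc1: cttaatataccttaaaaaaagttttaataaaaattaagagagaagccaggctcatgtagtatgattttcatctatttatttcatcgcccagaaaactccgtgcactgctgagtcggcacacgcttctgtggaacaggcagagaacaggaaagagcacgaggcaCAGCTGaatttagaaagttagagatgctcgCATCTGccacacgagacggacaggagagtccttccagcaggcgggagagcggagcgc
Myom3: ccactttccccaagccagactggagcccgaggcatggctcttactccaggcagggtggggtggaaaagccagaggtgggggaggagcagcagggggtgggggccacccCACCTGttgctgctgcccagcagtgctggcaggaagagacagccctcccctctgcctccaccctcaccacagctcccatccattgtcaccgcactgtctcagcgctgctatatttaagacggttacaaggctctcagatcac
The E-box is the short motif bound by basic helix-loop-helix factors, the MyoD family among them. The pattern CANNTG is its own reverse complement, so that a match on 1 strand is also a match on the other. There was 1 match upstream of Mybpc2 (CAGGTG), 2 upstream of Mybpc1 (CAGCTG and CATCTG) and 1 upstream of Myom3 (CACCTG). Of all 32851 promoter windows of the same length, 66.2% held at least 1 such match. For the MEF2 motif only the letters CTA and TAG held 4 bases apart were searched, on both strands. They matched none of the 3 windows and were present in 3.20% of all windows. Forms with other end letters were not searched, so this does not show that MEF2 sites are absent. The Myom3 run holds ctatatttaa, which ends in TAA and was therefore not counted. The letters TATAAA, also searched on both strands, matched none of the 3 and were present in 12.4% of all windows. GC content was 59.6% for Mybpc2, 46.4% for Mybpc1 and 62.0% for Myom3, against a median of 52.4%.

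The members covered a wide range of levels. Divided by the length of the longest coding transcript of GENCODE vM21, Mybpc1 had the highest level over all kept cells, at 1120 CPM per kb. Mybpc2 (180 CPM per kb) and Myom3 (134 CPM per kb) followed. Myom2 was far lower at 9.40 CPM per kb, and Mybph was at 0.274 CPM per kb. A UMI marks 1 transcript whatever its length, so the levels without length are given as well. Over all kept cells these were 4394 CPM for Mybpc1, 745 for Myom3, 649 for Mybpc2, 47.7 for Myom2 and 0.636 for Mybph. Myom3 was then above Mybpc2. The opposite order above comes only from the division by length, which a count of transcripts does not call for. Without length, Mybpc1 was the 27th most abundant of all genes in fast 2X cells and also the 27th in fast 2A cells. No stretch of 66 bases, the length of the sequenced cDNA read, in the longest coding transcript of any of the 5 occurred in a transcript of another gene.

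The fast 2A and fast 2X classes were then compared gene by gene. Myom2 and Mybpc2 were lower in fast 2A cells, by 5.48-fold and 4.39-fold, while Myom3 was 1.37-fold higher and Mybpc1 differed by only 1.04-fold. The 5 Myh genes were left out of this comparison because they define the classes, and 8649 genes had at least 500 counts over both classes. Of the 4 members among them, 2 were at least 2-fold lower in fast 2A cells, where 1.73% of all genes were, and 0 were at least 2-fold higher, where 0.775% of all genes were. By log2 ratio, Myom2 was the second lowest and Mybpc2 the fourth lowest of all these genes. The median log2 ratio of all genes was -0.09, with quartiles of -0.29 and 0.10. Mybph had too few counts to be included.

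**Figure D1:**
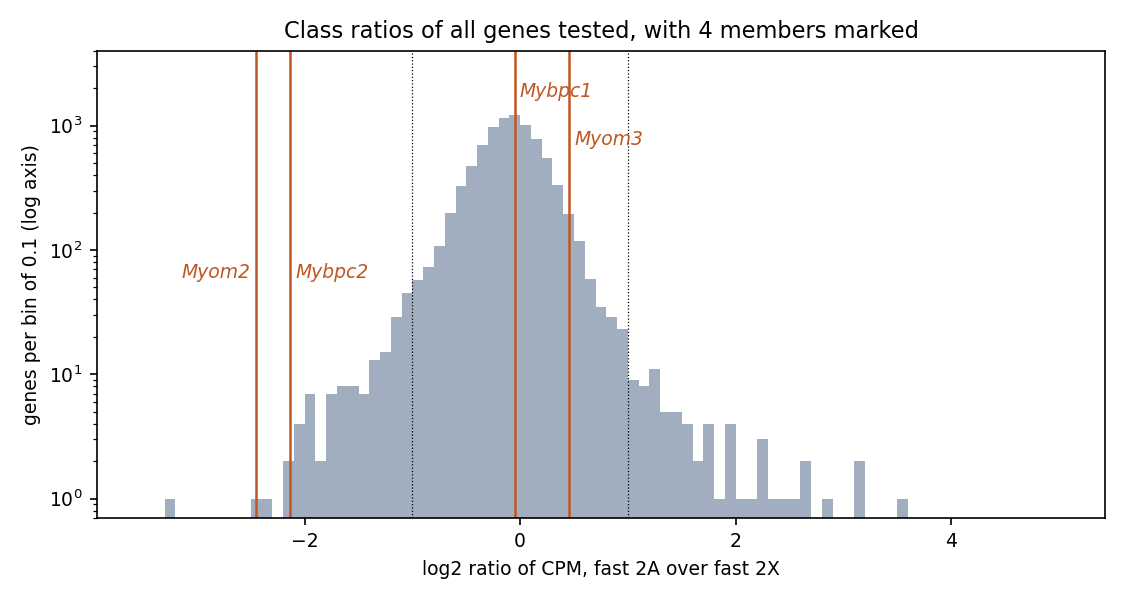
Number of genes (log axis) by log2 ratio of CPM in fast 2A over fast 2X cells for the 8649 genes with at least 500 counts, with dotted lines at 2-fold. Myom2 (-2.46) and Mybpc2 (-2.13) lie at the low end, Mybpc1 (-0.05) near the centre and Myom3 (0.45) on the upper slope.

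Myom2 (chr8:15057653-15133541, plus strand, in GRCm38) encodes M-protein, the myomesin of fast fibres. The processed pseudogene Gm15678, which lies within it on the opposite strand, was not analysed here. Myom2 had 2328 counts in fast 2X cells, or 59.4 CPM (limits 57.0 to 61.9), and 129 counts in fast 2A cells, or 10.8 CPM (limits 9.04 to 12.9). Single fast 2X cells lay between 0 and 412 CPM with a median of 40.4, and fast 2A cells between 0 and 39.1 CPM with a median of 8.74. The ranges overlapped at the low end, but 60 of the 117 fast 2X cells were above every fast 2A cell and all 51 fast 2A cells were below the fast 2X median. The log2 ratio of fast 2A over fast 2X was -2.46 (limits -2.72 to -2.20). It was -2.49 on lane 1 and -2.34 on lane 2, and ranged from -3.07 to -2.04 over the 8 plates, below 0 on each. Myom2 was also the most uneven of the 4 abundant members within a class: the coefficient of variation over fast 2X cells was 109%, where counting alone would give 36.1%. At least 1 UMI was found in 90.6% of fast 2X and 74.5% of fast 2A cells. When every cell was thinned to 28827 counts, the depth of the shallowest kept cell, these shares were 59.8% and 21.6%. Mybpc3, the cardiac isoform, which skeletal fibres should lack, had a UMI in 2.56% and 3.92% of the thinned cells.

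Myom3 (chr4:135759715-135815564, plus strand) encodes myomesin-3, and no annotated gene overlaps it. Its level was 686 CPM (limits 678 to 695) in fast 2X cells and 940 CPM (limits 923 to 958) in fast 2A cells. Single fast 2X cells lay between 102 and 1550 CPM with a median of 697, and fast 2A cells between 222 and 1822 CPM with a median of 936. The classes overlapped almost fully, although 46 of 51 fast 2A cells were above the fast 2X median. The log2 ratio was 0.45 (limits 0.42 to 0.49), with 0.37 on lane 1, 0.52 on lane 2 and a range from 0.09 to 0.77 over the plates, above 0 on each. Of all genes tested, 4.67% had a ratio at least as high.

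Mybpc1 (chr10:88518279-88605152, minus strand) encodes slow myosin binding protein C, which in this muscle was abundant in both fast classes. Its level was 4447 CPM (limits 4426 to 4468) in fast 2X cells and 4289 CPM (limits 4252 to 4327) in fast 2A cells. Single cells lay between 606 and 6217 CPM with a median of 4476 in fast 2X, and between 812 and 7009 CPM with a median of 4158 in fast 2A. It had the smallest spread of the members over cells, with a coefficient of variation of 24.0% in fast 2X and 22.4% in fast 2A. The log2 ratio of -0.05 (limits -0.07 to -0.04) has no settled sign: it was 0.04 with TMM factors and 0.04 with DESeq2 size factors, and over the plates it was below 0 on 5 and above 0 on 3. Gm48752, an unclassified transcript on the opposite strand, overlaps the 5′ end of Mybpc1 and had 4.98 CPM in fast 2X and 1.68 CPM in fast 2A cells.

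Mybpc2 encodes fast myosin binding protein C. Its level was 802 CPM (limits 793 to 811) in fast 2X cells and 183 CPM (limits 175 to 191) in fast 2A cells. Single fast 2X cells lay between 99.7 and 2114 CPM with a median of 752, whereas fast 2A cells lay between 92.3 and 481 CPM with a median of 165. Of the 117 fast 2X cells, 92 were above every fast 2A cell, and only 3 were below the fast 2A median. The log2 ratio was -2.13 (limits -2.20 to -2.07), with -2.27 on lane 1 and -2.00 on lane 2, and ranged from -2.67 to -1.75 over the plates. Gm44646, a non-coding transcript on the opposite strand at chr7:44501689-44504266 in GRCm38, covers 2568 bases of the 3′ end of Mybpc2 (chr7:44501699-44524656, minus strand). Whether the counting used strand is not given in the sources used here, so that counts of the 2 genes cannot be told apart with certainty. Gm44646 had 20.8 CPM in fast 2X and 2.18 CPM in fast 2A cells, and with its counts added to those of Mybpc2 the log2 ratio was -2.15.

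**Figure D2:**
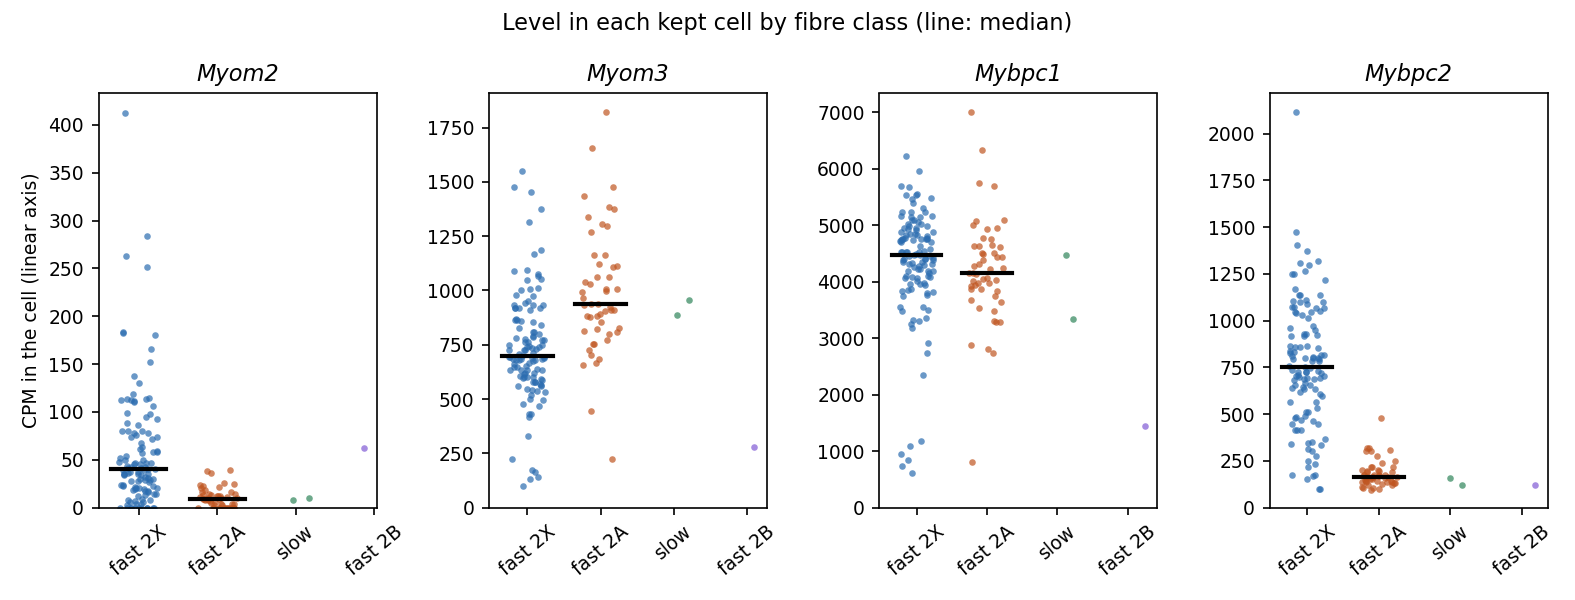
CPM (linear axes) of Myom2, Myom3, Mybpc1 and Mybpc2 in each kept cell by fibre class, with a bar at the median of the 117 fast 2X and 51 fast 2A cells. The Mybpc2 medians are 752 and 165 CPM with little overlap, while those of Mybpc1 are 4476 and 4158 CPM with full overlap.

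Mybph (chr1:134193448-134201232, plus strand) was close to the limit of detection. It had 18 counts in fast 2X cells (0.459 CPM, limits 0.272 to 0.726) and 7 in fast 2A cells (0.588 CPM, limits 0.236 to 1.21). A UMI was found in 13 of 117 fast 2X cells (11.1%, limits 6.05 to 18.3) and 4 of 51 fast 2A cells (7.84%, limits 2.18 to 18.9), at median depths of 255726 and 206510 counts. Mybpc3 had a UMI in 7.69% and 9.80% of these cells, within the same limits, so that the Mybph shares are read as background and a class difference of Mybph was not detectable at this depth. Both slow cells held it, with 4 and 2 counts (8.35 CPM, limits 2.28 to 21.4, and 19.9 CPM, limits 2.41 to 71.8). Adora1, which encodes an adenosine receptor, overlaps the 3′ part of Mybph on the opposite strand and had 2.88 CPM in fast 2X and 1.60 CPM in fast 2A cells.

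The share of Myh2 in the sum of Myh1 and Myh2 places each cell on a scale from 2X to 2A. The members were followed along it in steps of 10 percentage points. The slow cells, at shares of 45.0 and 48.3%, and the fast 2B cell, at 32.8%, are counted in these steps and in values over all cells, although they are neither 2X nor 2A. Mybpc2 was graded along this scale rather than divided at the class border. Its median was 919 CPM in the 47 cells with a share of 10 to 20%, 754 CPM in the 32 cells at 20 to 30% and 455 CPM in the 28 cells at 30 to 40%. It was 374 CPM in the 12 cells at 40 to 50% and 162 CPM in the 21 cells at 70 to 80%. Spearman's rho with the share was -0.80 over the 171 cells, -0.56 within fast 2X cells and -0.49 within fast 2A cells. The points of each such correlation are cells, taken to be of 1 mouse, that share plates and lanes. The values are descriptions only.

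Myom2 was also lower toward 2A, with medians of 59.1, 36.9 and 29.5 CPM in the first 3 of these steps and 10.1 CPM at 70 to 80%. Between them it was 11.0 CPM in the 12 cells at 40 to 50% and 19.2 CPM in the 6 cells at 50 to 60%. At the thinned depth the median was 34.7 CPM in each of the first 3 steps, which is the level of 1 UMI, so that no gradient can be read there from medians. The summed counts of these 3 steps, at full depth, gave 76.1, 45.9 and 28.3 CPM. Its rho was -0.66 over all cells, -0.47 within fast 2X and -0.48 within fast 2A cells. Myom3 went the other way, from a median of 635 CPM at 10 to 20% to 936 CPM at 70 to 80% and 1084 CPM in the 14 cells at 80 to 90%. Its rho was 0.48, with 0.26 within fast 2X and 0.34 within fast 2A cells. With the number of genes detected, Myom3 had a rho of -0.36 within fast 2X and -0.40 within fast 2A cells. The part of this in its trend along the share was not tested.

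Mybpc1, almost level between the classes, was not level along the scale. Its median was 4692 CPM at 10 to 20%, 3999 CPM at 30 to 40%, 4413 CPM in the 12 cells at 40 to 50% and 3917 CPM at 70 to 80%, and then 4763 CPM in the 14 cells at 80 to 90%. The rho with the share was -0.28 within fast 2X cells and 0.49 within fast 2A cells, so that the value over all cells, -0.21, joins opposite slopes. Without lane 1 that value was -0.34, and without lane 2 it was -0.11. The high end rests on few cells, since no step from 80% upward holds 20.

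**Figure D3:**
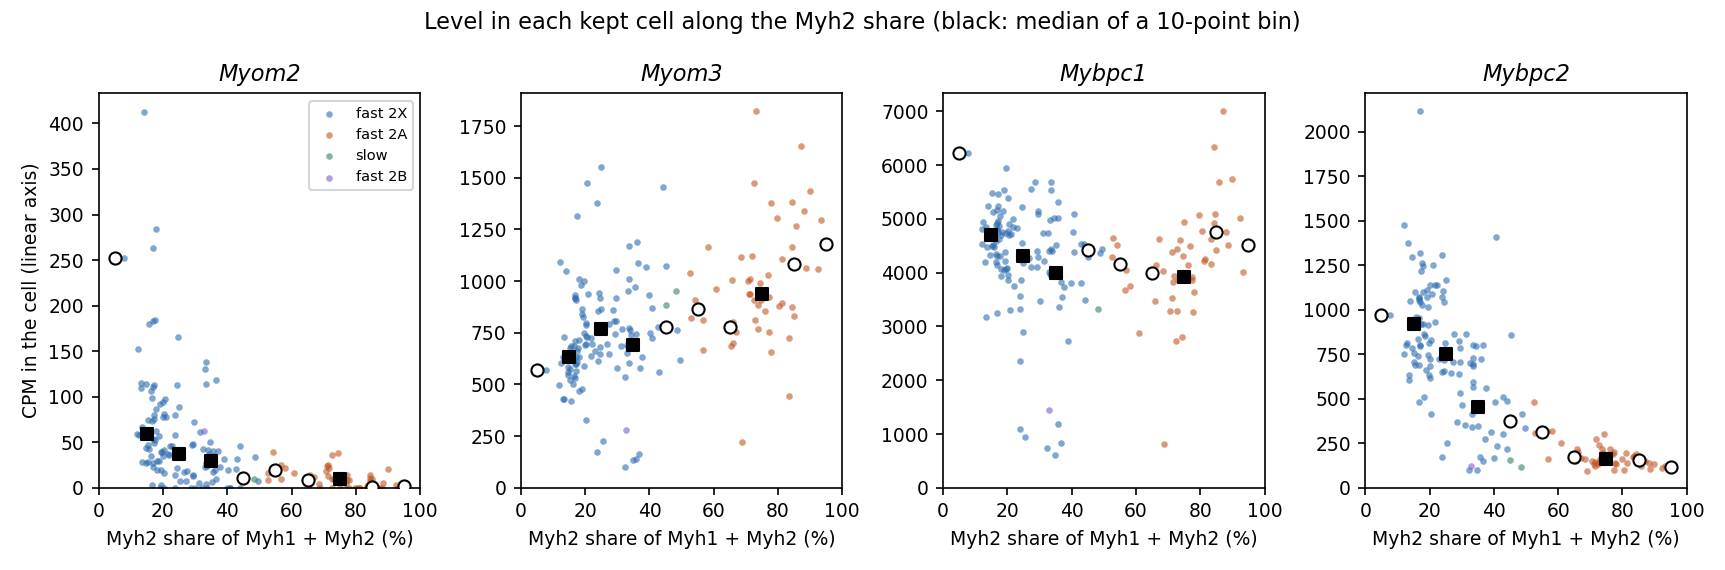
CPM (linear axes) of 4 members in each kept cell against the Myh2 share of Myh1 + Myh2 in percent, with black squares for medians of steps of at least 20 cells and open circles for medians of smaller steps. Mybpc2 medians go from 919 CPM at 10 to 20% to 162 CPM at 70 to 80%, and Mybpc1 medians are 4692 CPM at 10 to 20%, 3917 CPM at 70 to 80% and 4763 CPM at 80 to 90%.

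The balance within each family was read inside single cells, where the total of the cell cancels. Mybpc2 made up 15.3% (limits 15.1 to 15.4) of the Mybpc1 and Mybpc2 counts in fast 2X cells and 4.08% (limits 3.92 to 4.26) in fast 2A cells. Single fast 2X cells ranged from 4.18 to 30.5% with a median of 14.2%, and fast 2A cells from 2.07 to 10.2% with a median of 3.92%. Of the 117 fast 2X cells, 96 were above every fast 2A cell. In every kept cell the slow isoform therefore had more counts than the fast isoform. Myom2 made up 7.97% (limits 7.66 to 8.28) of the Myom2 and Myom3 counts in fast 2X cells, with a median of 5.38% and a highest cell at 31.8%. In fast 2A cells it was 1.14% (limits 0.952 to 1.35), with a highest cell at 4.26%. Along the Myh2 share the rho of the Mybpc2 share was -0.80 and that of the Myom2 share was -0.69.

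**Figure D4:**
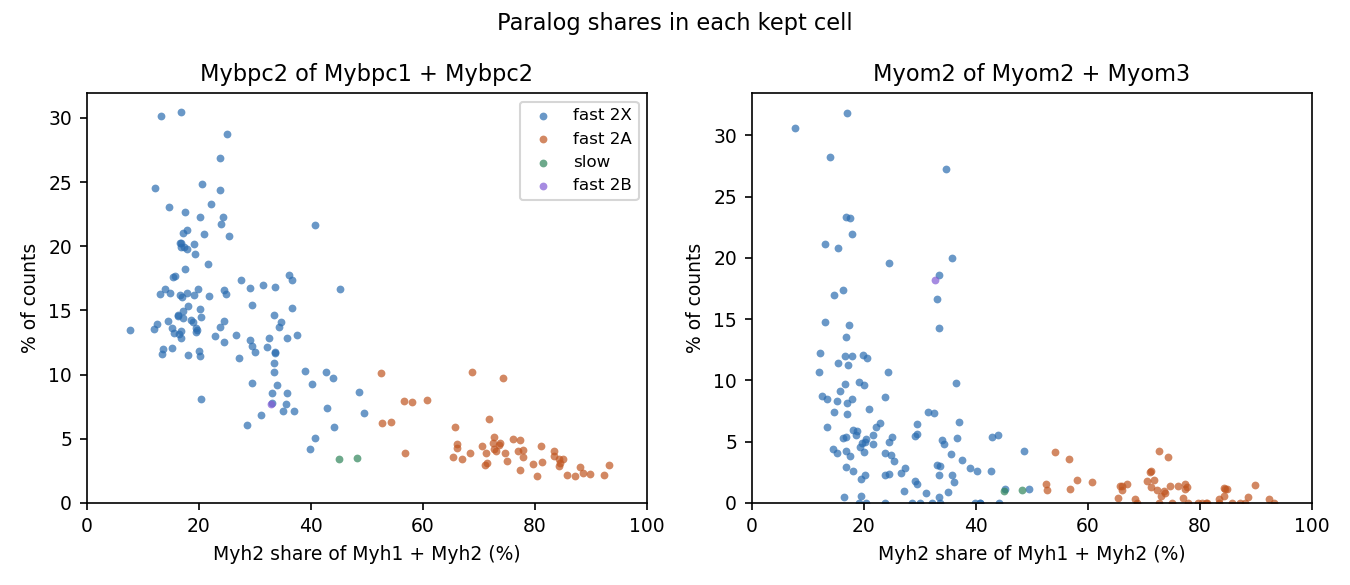
Mybpc2 as a percentage of Mybpc1 and Mybpc2 counts (left) and Myom2 as a percentage of Myom2 and Myom3 counts (right) in each kept cell, against the Myh2 share in percent. The median Mybpc2 share is 14.2% in fast 2X and 3.92% in fast 2A cells.

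The slow and fast 2B classes hold too few cells for more than their values. In the slow cells Mybpc2 was 159 and 119 CPM and Myom2 was 8.35 and 9.94 CPM. Their Myom3 levels were 886 and 954 CPM and their Mybpc1 levels 4472 and 3329 CPM. All of these values lay inside the ranges of both fast classes. The fast 2B cell had 62.3 CPM of Myom2, above all fast 2A cells, but only 121 CPM of Mybpc2, 280 CPM of Myom3 and 1440 CPM of Mybpc1. Its largest gene made up 53.5% of the 5 Myh genes.

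That cell was 1 of 8 in which Mybpc1 was between 606 and 1440 CPM, separated by a gap from the other 163 cells, which began at 2354 CPM. The 8 cells, picked out after their values were seen, comprised 6 fast 2X, 1 fast 2A and the fast 2B cell and came from 5 plates. Their median levels were 170 CPM of Myom3 and 136 CPM of Mybpc2, and the myofibre markers summed to a median of 22663 CPM, against 94223 CPM in the other cells. Fibroblast markers summed to a median of 1338 CPM (104 to 2843) against 17.9 CPM (0 to 383), and endothelial markers to 528 CPM (152 to 1117) against 28.7 CPM (0 to 180). The part of other cells in the low levels was not tested. Without these 8 cells the log2 ratios of fast 2A over fast 2X were -2.46 for Myom2, 0.44 for Myom3, -0.06 for Mybpc1 and -2.15 for Mybpc2. Of the 33 counts of Mybph, 7 lay in them.

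The 592 cells that were left out, taken to be of the same mouse, give a second set of cells. They had a median of 16032 counts and 48.0% mitochondrial counts. In these, 378 held at least 50 counts of the 5 Myh genes, 309 of them fast 2X and 54 fast 2A by the same rule. The log2 ratio of fast 2A over fast 2X was far smaller there: -0.77 (limits -1.45 to -0.15) for Myom2 and -0.18 (limits -0.33 to -0.04) for Mybpc2. It was 0.66 (limits 0.54 to 0.78) for Myom3 and 0.17 (limits 0.12 to 0.23) for Mybpc1. Thus 0 of the 4 members were at least 2-fold lower and 0 at least 2-fold higher, where 2.82% and 6.31% of the 8649 genes were. With mitochondrial genes taken out of the totals, the ratios were -1.03 for Myom2, -0.44 for Mybpc2, 0.40 for Myom3 and -0.09 for Mybpc1. Myom2 is then past 2-fold, which makes the count of lower members 1. This change of totals lowers the ratio of every gene alike. The share of all genes past 2-fold was not computed on this scale, so the count has no background beside it. By lane, Mybpc2 was at -0.35 on lane 1 and 0.14 on lane 2, where only 7 fast 2A cells were present, and at -0.51 on both lanes without the mitochondrial genes. The pooled values join unlike cells: in whole myofibers the ratio was -0.32 (limits -1.10 to 0.37) for Myom2 and -0.36 (limits -0.54 to -0.19) for Mybpc2, and in fragments, with 9 fast 2A cells and 4 Myom2 counts in them, it was -1.92 (limits -3.82 to -0.52) and 0.29 (limits 0.02 to 0.55). The classes themselves were less distinct in these cells: the median Myh2 share was 31.6% in fast 2X and 61.8% in fast 2A cells, against 22.1% and 74.3% in kept cells, from a median of 113 and 91 Myh counts. Actn3, the alpha-actinin of fast fibres, and Pvalb, the calcium buffer parvalbumin, had log2 ratios of -0.25 and -0.34 there, against -1.74 and -1.61 in kept cells.

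**Figure D5:**
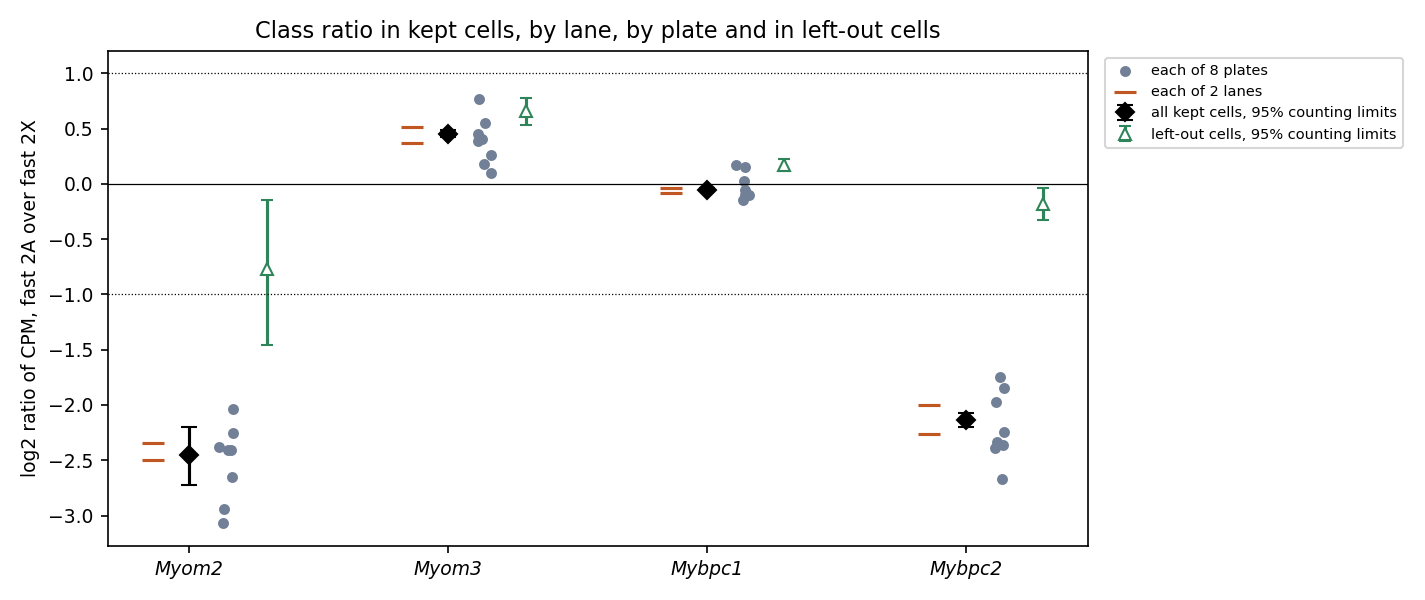
Log2 ratio of CPM in fast 2A over fast 2X cells for 4 members, with black diamonds for all kept cells (95% counting limits), bars for the 2 lanes, grey points for the 8 plates and open triangles for the left-out cells (95% counting limits). Myom2 and Mybpc2 are below -1.7 on each plate, but at -0.77 and -0.18 in the left-out cells.

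Over all classes, the left-out cells had lower levels of each member, with 1472 CPM of Mybpc1 against 4394 CPM in kept cells and 22.6 CPM of Myom2 against 47.7 CPM. Without mitochondrial genes in the totals, the log2 ratio of left-out over kept cells was -0.10 (limits -0.26 to 0.07) for Myom2 and -0.29 (limits -0.34 to -0.24) for Mybpc2. It was -0.61 for Myom3 and -0.59 for Mybpc1 on the same scale.

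The genes most like each member over the 171 cells were found by Spearman's rho of CPM among genes with at least 500 counts. For Mybpc2 these were Actn3 (rho 0.88), Pvalb (0.82) and Mss51 (0.82), and for Myom2 they were Actn3 (0.69), Mybpc2 (0.65) and Pvalb (0.62). These values include the difference between the classes. Within fast 2X cells, those of Mybpc2 were 0.75, 0.57 and 0.54. Those of Myom2 with Actn3 and Pvalb were 0.57 and 0.46 there. Myom2 and Mybpc2 also had a rho of 0.50 within fast 2X cells and 0.38 within fast 2A cells. The genes like Myom3 included Hspb7, a small heat shock protein of striated muscle (0.62), and Actn2, the alpha-actinin of all striated fibres (0.62). Their log2 ratios of fast 2A over fast 2X were 1.00 and 0.74. The genes like Mybpc1 included Trdn, the triadin of the calcium release site (0.52), and Cmya5 (0.51). Within fast 2X cells the rho was 0.46 for Myom3 with Hspb7 and 0.48 with Actn2. For Mybpc1 it was 0.53 with Trdn and 0.53 with Cmya5. These values rank genes by likeness over cells that are taken to share 1 mouse and that differ in depth. Mybph was under the count minimum.

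A list of 14 partners was read beside the members, comprising M-band and thick filament proteins and proteins that fold or turn them over. Of these 14, all tested, 0 were at least 2-fold lower and 0 at least 2-fold higher in fast 2A cells. Their log2 ratios ranged from -0.59 to 0.26 with a median of 0.15, against -0.09 for all genes. Ttn, the giant ruler of the sarcomere, was at 56983 CPM in fast 2X and 64577 CPM in fast 2A cells. Ckm, the creatine kinase that docks at the M-band, was at 4552 and 3022 CPM, which was the lowest ratio of the list. Among the relatives of the members, Mybpc3 had 26 counts over all kept cells and Mybphl had 100. Igfn1, an immunoglobulin-domain protein of skeletal muscle related to the myosin binding proteins, had 9.90 CPM in fast 2X and 5.63 CPM in fast 2A cells. In the fast 2B cell it had 477 counts, or 1856 CPM (limits 1693 to 2030), where the next highest kept cell was at 166 CPM.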

How the data were processed

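Single-cell RNA-seq (mcSCRB-seq) of 763 FDB myofibers and fragments, taken to be of 1 mouse, was used. The authors mapped reads to GRCm38 with spike-in sequences added and obtained UMI counts by zUMIs, and the submitters' processing notes name STAR (2.5.4b). In the deposited table the gene rows are whole UMI counts, and the columns were handled as estimated counts because description rows above them also hold percentages. From there, the cells of each class were pooled by adding their counts, which were scaled to CPM, with exact Poisson limits for levels, exact conditional binomial limits for ratios and exact Clopper-Pearson limits for shares, at 95% (Python 3.11.15, scipy 1.17.1). Kept cells had between 28827 and 1542996 counts. No p-value was computed, since the cells are taken to be of 1 mouse and are not replicates. A gene was counted as differing when its classes were at least 2-fold apart. The ratio step was tested on simulated data.

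The members and lists were chosen with earlier results of these data known. Named genes were all members, their relatives Mybpc3, Mybphl and Igfn1, the 3 genes most like each member, listed partners past 2-fold and the 2 with the largest levels, genes overlapping a member, and the Myh genes of the classes. Some genes that this rule selects are not reported here. Alternatives covered scaling (edgeR 4.0.16 TMM, DESeq2 1.42.0 size factors, spike-ins), cell filters, class limits, thinning and single lanes. Promoter sequences are from RefSeq (GRCm38.p6), where 5 of the 6 listed genes had a window.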

Additional observations from a re-analysis of the deposited data

How the results depend on the processing

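Over the alternatives other than left-out cells, the log2 ratio of fast 2A over fast 2X stayed between -2.92 and -2.21 for Myom2. It stayed between -2.47 and -2.00 for Mybpc2 and between 0.29 and 0.64 for Myom3. Among these, the filter with mt-Rnr1 and mt-Rnr2 left out of the mitochondrial share also took in cells beyond the kept ones. Mybpc1 lay between -0.22 (spike-in totals) and 0.04 (DESeq2 size factors), and Mybph between -0.47 and 1.38. Scaling to spike-ins moved all log2 ratios by -0.17. Members at least 2-fold lower numbered 2 in every other alternative and 0 in left-out cells, an alternative added after the data were seen. In left-out cells Myom2 was at -1.03 once mitochondrial genes were taken out of the totals. In all of these alternatives 0 of the members with at least 500 counts were at least 2-fold higher. Mybph, under that minimum, was at 1.38 with Myh2 shares over 70% against under 20%, and at 1.09 without lane 1. The rho of Mybpc1 with the Myh2 share turned from -0.21 to 0.49 when fast 2A cells alone were used, and was -0.34 to -0.11 with 1 lane left out. The causes were not tested.

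The count of all genes at least 2-fold lower, 150, became 248 with spike-in totals, 327 with medians over cells, 232 with Myh2 shares over 70% against under 20%, 350 after thinning and 244 in left-out cells. It was 632 at a fold of 1.5, 9 at a fold of 4, 700 with at least 100 counts and 8855 with at least 1 count, and 165 to 310 when 1 lane was left out. The count at least 2-fold higher, 67, became 122 with Myh2 shares over 70% against under 20%, 546 in left-out cells, 222 and 14 at those folds, and 189 and 3059 with those minimums. Leaving out 1 lane gave 78 to 94. No paired analysis was possible because the lanes hold cells of 1 group, taken to be of 1 mouse, and no test was made. The ratios within lanes and plates stand with each member. Mybph, with 33 counts, is limited by depth.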

Other observations

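The fast 2B cell, described after its values were seen, had further genes at levels not met in the other 170 kept cells. With at least 50 counts required, 117 genes outside the 5 Myh genes were higher in it than in any other kept cell. Myh13, a myosin heavy chain known from extraocular muscle, had 647 counts there (2517 CPM, limits 2327 to 2719), where the next highest cell had 126 CPM. Myh7b, another sarcomeric myosin, was at 856 CPM (limits 747 to 977) with 169 CPM in the next cell. Actc1, the cardiac alpha-actin, was at 292 CPM (limits 230 to 366) with 54.3 CPM in the next cell. Igfn1, at 1856 CPM, was 11.2 times the level of the next cell. The same cell had 2043 CPM of summed fibroblast markers, where the median of the other kept cells was 18.7 CPM, and 29344 CPM of summed myofibre markers, where that median was 92595 CPM. Actn3 and Pvalb summed to 2389 CPM against a median of 5973 CPM, and Tnni1, Tnnt1 and Myl3 to 2650 CPM against 1020 CPM. Schwann markers were at 280 CPM against 0.998 CPM, and the cardiac list at 424 CPM against 12.5 CPM. The label fast 2B rests only on Myh4 being the largest of the Myh genes in this cell. These are the values of 1 cell, with no replicate, and the part of RNA from other cells in them was not tested.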
